A study of Arabidopsis thaliana with 4 samples.

Results

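BBX18 to BBX25 are the 8 Arabidopsis genes for small B-box proteins with a pair of B-box domains and no CCT domain. They were chosen by gene identifier and all 8 were among the 33602 genes of the deposited table. The choice was made with earlier results of the jmj28-3 against WT contrast in view, so all changes, calls and counts given for these genes are a description of this dataset and not independent evidence. The labels give 2 groups of Arabidopsis thaliana seedlings, jmj28-3 and wild type (WT, titled Col-0), with 2 libraries of polyadenylated RNA each. All seedlings were 12 days old and had grown on MS medium with 1% sucrose in long days of 16 h light and 8 h dark at 23 °C. Whole seedlings were used, and the sources used here name neither the lesion in jmj28-3 nor the hour of harvest.

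B-box domains bind zinc and mediate contacts between proteins. This class works largely through the bZIP factor HY5, the main driver of light-dependent seedling development, and its members are themselves targets of the ubiquitin ligase COP1, which acts with SPA proteins. BBX18, BBX19, BBX24 and BBX25 are known as repressors of light-dependent seedling development, and BBX20, BBX21, BBX22 and BBX23 as positive regulators of it.

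Values are FPKM, fragment numbers relative to library size and to transcript length, so levels can be set against each other between genes. The libraries were alike in sum, with 983897 to 991510 summed FPKM, and their relative depth ran from 0.989 to 1.18 times that of WT replicate 1. JMJ28 (AT4G21430), a jumonji-domain gene, had 3.65 and 3.33 FPKM in jmj28-3 and 3.80 and 5.54 FPKM in WT (log2 change -0.32, adjusted p = 0.327), which does not check the genotype, since the kind of lesion is not given. Of 20232 tested genes, 846 were higher and 767 lower in jmj28-3. The photosynthesis genes RBCS1A, CAB1 and RBCS3B, markers of green leaf from families of near-identical genes, summed to 63032 and 61217 FPKM in jmj28-3 and to 63803 and 60356 FPKM in WT. The root markers CASP1, COBL9, EXPA7 and SCR summed to 82.6 and 74.3 FPKM in jmj28-3 and to 101 and 109 FPKM in WT. All 4 root markers were lower in both jmj28-3 libraries than in both WT libraries, and 1 of them, SCR, was called. Of all tested genes, 32.7% showed that pattern and 3.79% were called lower. Of the shoot meristem markers, STM lay between 1.21 and 1.92 FPKM over the 4 libraries and CLV3 was listed at 0 in 3 of them. The floral markers AG, AP3 and PI stayed at or below 0.52 FPKM, the seed storage gene CRA1 at or below 0.46 FPKM, and SESA1 was listed at 0 in all 4 libraries. In whole seedlings, fewer cells of a type and less RNA per cell cannot be told apart. The part of root tissue in the changes given below was not tested.

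The 8 genes lie on chromosomes 1, 2 and 4 of the TAIR10.1 assembly. BBX24 (AT1G06040, 1828340 to 1829983, minus strand, 3 exons), BBX21 (AT1G75540, 28365824 to 28367738, plus strand, 3 exons) and BBX22 (AT1G78600, 29566863 to 29568931, plus strand, 3 exons) are on chromosome 1. BBX18 (AT2G21320, 9126263 to 9127987, plus strand, 5 exons) and BBX25 (AT2G31380, 13381767 to 13383470, plus strand, 3 exons) are on chromosome 2. BBX23 (AT4G10240, 6368829 to 6369950, minus strand, 2 exons), BBX19 (AT4G38960, 18160903 to 18163341, plus strand, 5 exons) and BBX20 (AT4G39070, 18204631 to 18206684, minus strand, 2 exons) are on chromosome 4. BBX19 and BBX20 are 41289 bases apart with 9 protein-coding genes between them, and of these neighbours BBX19 was called lower in jmj28-3 and BBX20 was not called, as given below.

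The closest relatives by coding sequence were BBX18 with BBX19, which were 83% identical over 500 aligned bases, and BBX24 with BBX25, which were 78.2% identical over 711 aligned bases. Gaps are left out of these shares. Relative to the longer coding sequence of each pair, identity was 60.9% for BBX18 with BBX19 and 74.4% for BBX24 with BBX25. The longest run of identical bases between the longest annotated mRNAs of BBX24 and BBX25 was 32 bases, within the coding part of both, at coding bases 271 to 302 counted from the start codon. That of BBX18 and BBX19 was 20 bases, also coding. These runs are shown in lower case because they are the longest stretches over which reads of the paired genes would be the same. The sources used here give no read length, and whether reads were shared was not tested.
BBX24 (chr1:1829189-1829220, minus strand): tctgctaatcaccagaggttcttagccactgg
BBX25 (chr2:13382765-13382796, plus strand): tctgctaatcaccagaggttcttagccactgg
BBX18 (chr2:9127167-9127186, plus strand): ttcttttactgtgagataga
BBX19 (chr4:18162509-18162528, plus strand): ttcttttactgtgagataga

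The 300 bases before the annotated start of the 4 genes that were lower in jmj28-3 are shown next, 5′ to 3′ on the strand of the gene, since all 4 were called in the same direction. Capitals mark matches to motifs searched on both strands. The motifs were the G-box CACGTG bound by HY5 and other bZIP and bHLH factors, its ACGT core, the E-box CANNTG bound by bHLH factors, the evening element AAAATATCT and the CCA1 binding site AAAAATCT. Every G-box is also an E-box and holds the ACGT core.
BBX18 (chr2:9125963-9126262, plus strand): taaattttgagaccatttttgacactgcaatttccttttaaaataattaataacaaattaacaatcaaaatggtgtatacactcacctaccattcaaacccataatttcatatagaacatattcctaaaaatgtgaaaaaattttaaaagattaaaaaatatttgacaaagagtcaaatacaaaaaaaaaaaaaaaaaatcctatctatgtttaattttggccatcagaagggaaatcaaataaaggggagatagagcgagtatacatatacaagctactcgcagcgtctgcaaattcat
BBX19 (chr4:18160603-18160902, plus strand): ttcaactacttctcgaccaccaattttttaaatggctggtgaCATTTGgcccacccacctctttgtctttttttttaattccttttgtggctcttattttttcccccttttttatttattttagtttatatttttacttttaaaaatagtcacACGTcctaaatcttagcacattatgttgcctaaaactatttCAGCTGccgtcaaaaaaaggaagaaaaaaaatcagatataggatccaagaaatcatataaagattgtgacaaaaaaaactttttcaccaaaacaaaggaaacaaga
BBX24 (chr1:1829984-1830283, minus strand): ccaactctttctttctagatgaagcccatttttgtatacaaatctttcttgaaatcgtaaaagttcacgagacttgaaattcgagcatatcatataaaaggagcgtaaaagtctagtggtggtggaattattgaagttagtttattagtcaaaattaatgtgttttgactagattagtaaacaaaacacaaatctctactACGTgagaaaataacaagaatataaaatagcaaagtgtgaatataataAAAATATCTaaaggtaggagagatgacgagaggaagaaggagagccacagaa
BBX25 (chr2:13381467-13381766, plus strand): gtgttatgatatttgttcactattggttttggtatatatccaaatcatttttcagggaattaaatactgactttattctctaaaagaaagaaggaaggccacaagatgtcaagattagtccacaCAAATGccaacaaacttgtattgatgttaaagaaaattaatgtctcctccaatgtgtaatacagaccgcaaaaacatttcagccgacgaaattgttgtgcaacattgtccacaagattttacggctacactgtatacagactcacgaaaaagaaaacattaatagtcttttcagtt

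In these windows BBX19 held the ACGT core at -147 to -144 from the gene start and E-boxes at -258 to -253 and -106 to -101. BBX24 held the ACGT core at -100 to -97 and an evening element at -52 to -44. BBX25 held an E-box at -176 to -171, and BBX18 held no match. Among the 4 other genes, BBX20 held the ACGT core at -158 to -155, BBX22 a CCA1 binding site at -283 to -276 on the opposite strand, and BBX21 and BBX23 no match. The G-box was in none of the 8 windows and in 7.09% of 27443 windows of the same length before protein-coding genes. The shares of those windows were 49.0% for the ACGT core (3 of the 8 genes), 61.9% for the E-box (2 of the 8), 2.79% for the evening element (1 of the 8) and 7.94% for the CCA1 binding site (1 of the 8). A match is a description of the letters and does not show that a factor binds there. Sequence outside these windows was not searched, so a window without a match does not show that the gene lacks the motif.

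**Figure D1:**
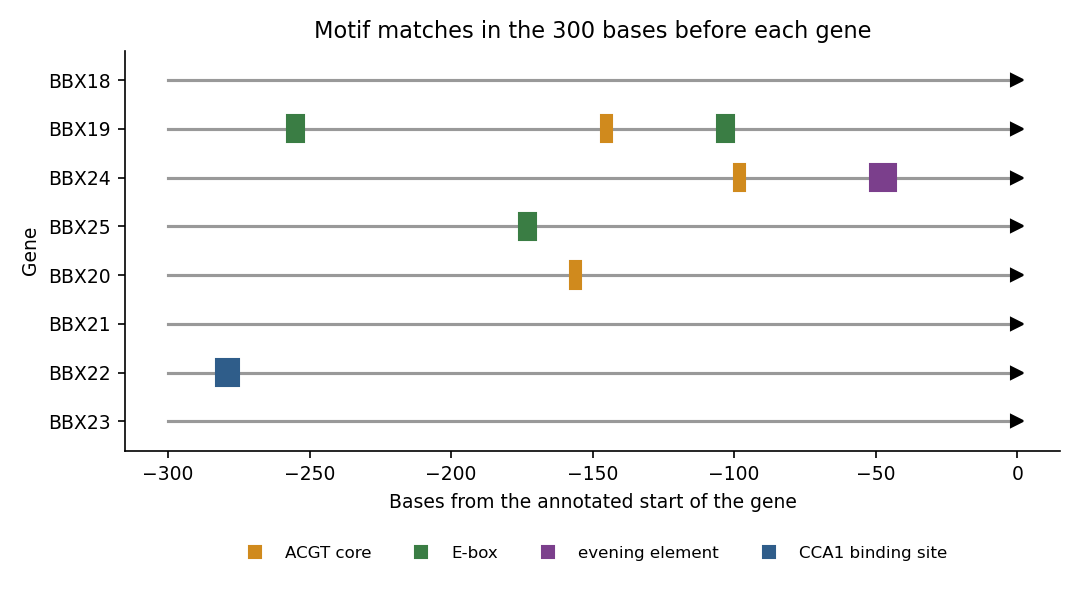
Map of the motif matches in the 300 bases before each of the 8 genes, drawn to scale, with the x axis in bases from the annotated gene start (arrowhead) and 1 line per gene. Coloured boxes are matches to the 4 motifs that occurred; BBX24 has the evening element nearest its start, and BBX18, BBX21 and BBX23 have no match.

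The transcripts of the 4 repressor genes BBX18, BBX19, BBX24 and BBX25 were lower in jmj28-3, and those of the positive regulators BBX20, BBX21 and BBX22 were not called in either direction. Not called does not mean unchanged, since BBX20 had a log2 change of 0.37 (SE 0.161) and BBX24, which was called, had -0.29 (SE 0.0484). The split by role is background knowledge, applied with the values in view. The test was limma on log2(FPKM + 1) across all genes with mean FPKM of at least 0.5, and a gene is called at an adjusted p under 0.05 after Benjamini-Hochberg adjustment. Of the 8 genes, 7 were tested, 4 were called lower and none higher, where 7.97% of all tested genes were called, 3.79% lower and 4.18% higher. The rise or fall of these genes was known when they were chosen, so nothing is read from that count. At an unadjusted p under 0.05 in limma, 4 of these genes were lower and 0 higher, where 13.7% of all tested genes were lower and 10.6% higher.

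BBX18, which restrains light-dependent development and acts in growth at warm temperature, had the largest change of the class. It had 21.2 and 18.3 FPKM in jmj28-3, against 39.2 and 43.2 FPKM in WT. The genotypes did not overlap, and both jmj28-3 libraries lay near 20 FPKM while both WT libraries lay near 40 FPKM. The mean of 19.8 ± 2.04 FPKM in jmj28-3 was 2.09-fold lower than that of 41.2 ± 2.83 FPKM in WT (SD, n = 2 each), and limma put the log2 change at -1.03 (SE 0.0942, adjusted p = 0.00541). Only 0.608% of tested genes had a lower log2 change. Without jmj28-3 replicate 2 the call was lost, with a log2 change of -0.93 and an adjusted p of 0.0671.

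BBX19, the closest relative of BBX18, interacts with CONSTANS, and with COP1 in the turnover of the clock protein ELF3. It had 13.5 and 11.5 FPKM in jmj28-3, against 20.1 and 21.8 FPKM in WT. Again the groups did not overlap. The means were 12.5 ± 1.40 FPKM in jmj28-3 and 20.9 ± 1.20 FPKM in WT (SD, n = 2 each), 1.68-fold lower in jmj28-3, with -0.71 as the log2 change (SE 0.0993, adjusted p = 0.0170). Leaving out any 1 of the 4 libraries ended the call, with adjusted p from 0.0562 to 0.128 and log2 changes from -0.81 to -0.60.

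BBX24 (also STO or salt tolerance protein), which binds HY5 and COP1 and dampens HY5 activity, had the highest level of the class in every library. Its FPKM were 235 and 223 in jmj28-3 and 281 and 279 in WT. The fall was small and the spread smaller, so the groups did not overlap, with means of 229 ± 8.41 FPKM in jmj28-3 and 280 ± 1.27 FPKM in WT (SD, n = 2 each). That was 1.22-fold lower, with -0.29 as the log2 change (SE 0.0484, adjusted p = 0.0277). This call was kept in 5 of 12 alternative settings, the fewest of the 4 genes. The adjusted p was 0.0515 with no filter, 0.0851 with replicate number as a block, 0.114 with no variance trend, all with the log2 change still at -0.29. It was up to 0.193 with any 1 library left out, none of which kept the call, with log2 changes from -0.33 to -0.25. BBX24 also overlaps AT1G06045, annotated on the opposite strand, by 344 bases, and that gene has no FPKM values here. The sources used here do not state strand use in the counting, so reads of the 2 genes within this overlap cannot be told apart.

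BBX25 (also STH), the relative of BBX24 that likewise binds HY5 and COP1, had 42.7 and 33.1 FPKM in jmj28-3, against 65.3 and 71.5 FPKM in WT. The groups did not overlap, and the jmj28-3 libraries differed from each other more than the WT libraries did. The mean of 37.9 ± 6.75 FPKM in jmj28-3 was 1.81-fold lower than that of 68.4 ± 4.42 FPKM in WT (SD, n = 2 each), with -0.84 as the log2 change (SE 0.126, adjusted p = 0.0196). The call was lost without WT replicate 1, WT replicate 2 or jmj28-3 replicate 2 (adjusted p = 0.0985, 0.115 and 0.0871), where the log2 change was -0.91, -0.78 and -0.67. It was also lost with no filter (adjusted p = 0.0571) and with no variance trend (adjusted p = 0.0619), both with the log2 change still at -0.84. Its annotated end overlaps AT2G31390 on the opposite strand by 48 bases. That gene had 132 and 136 FPKM in jmj28-3 and 130 and 151 FPKM in WT, so its level did not separate the genotypes.

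**Figure D2:**
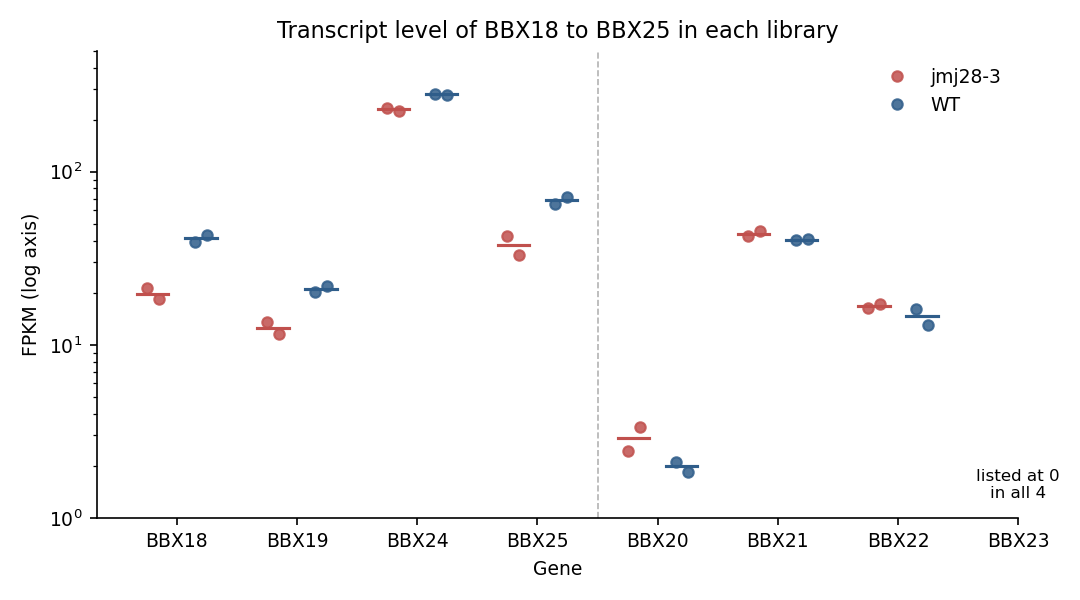
Transcript level in FPKM on a log axis of each of the 8 genes, with 1 point per library, jmj28-3 in red left of WT in blue, and a line at each mean; the repressor genes stand left of the dashed line and the positive regulators right of it. BBX18 lies at 21.2 and 18.3 FPKM in jmj28-3 and at 39.2 and 43.2 FPKM in WT, BBX24 is the highest gene in both genotypes, and BBX23 is listed at 0 in all 4 libraries.

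None of the positive regulators was called in either direction. BBX20 (also BZS1), a gene repressed by the brassinosteroid factor BZR1 whose protein is a cofactor of HY5, had 2.42 and 3.33 FPKM in jmj28-3 and 2.11 and 1.85 FPKM in WT. Its log2 change was 0.37, with a 95% interval from -0.03 to 0.77 and an adjusted p of 0.239. BBX20 overlaps AT4G39060 on the opposite strand by 4 bases, a gene with 0.27 and 0.52 FPKM in jmj28-3 and listed at 0 in both WT libraries.

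BBX21, whose protein binds the HY5 promoter and activates it, had 42.3 and 45.4 FPKM in jmj28-3 and 40.2 and 40.8 FPKM in WT. The change of 0.11 log2 units had a 95% interval from -0.04 to 0.27 (adjusted p = 0.341), the narrowest of the 3 tested positive regulators. BBX22 (also LZF1), a light-induced factor with a role in anthocyanin accumulation, had 16.3 and 17.3 FPKM in jmj28-3 and 16.1 and 13.1 FPKM in WT. Its log2 change was 0.19, with a 95% interval from -0.09 to 0.48 (adjusted p = 0.360). For BBX20, BBX21 and BBX22 both jmj28-3 libraries lay above both WT libraries, a pattern that 22.4% of all tested genes showed, and for BBX22 the gap was 16.3 against 16.1 FPKM. The 4 repressor genes had both jmj28-3 libraries below both WT libraries, as did 32.7% of all tested genes. BBX23, which acts in red and far-red light, was listed at 0 FPKM in all 4 libraries and was not tested. Absolute depth is unknown, so no upper limit is given for BBX23.

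**Figure D3:**
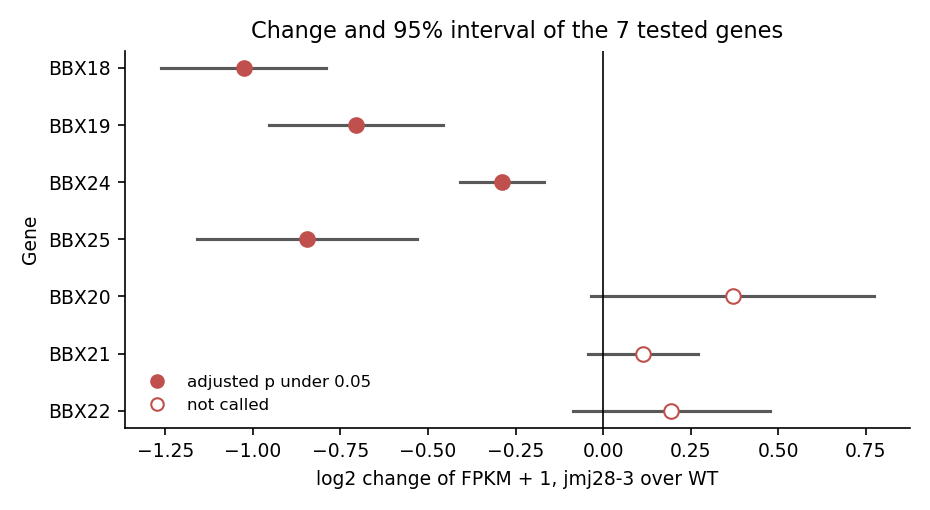
Log2 change of FPKM + 1 in jmj28-3 over WT for the 7 tested genes (points) with 95% intervals from limma (lines), filled where the adjusted p was under 0.05. The repressor genes lie between -1.03 for BBX18 and -0.29 for BBX24, and the intervals of BBX20, BBX21 and BBX22 include 0.

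The order of levels within the class differed between genotypes. In jmj28-3 the order was BBX24, then BBX21 and BBX25, whose values overlapped, then BBX18, BBX22, BBX19, BBX20 and BBX23. In WT it was BBX24, BBX25, then BBX18 and BBX21, whose values overlapped, then BBX19, BBX22, BBX20 and BBX23. BBX22 was thus above BBX19 in both jmj28-3 libraries and below it in both WT libraries. The ratio of BBX21 to BBX18 was 2.00 and 2.48 in jmj28-3 and 1.02 and 0.943 in WT, and that of BBX25 to BBX24 was 0.182 and 0.149 in jmj28-3 and 0.233 and 0.257 in WT. The ratio of BBX19 to BBX18 was 0.635 and 0.627 in jmj28-3 and 0.512 and 0.504 in WT. So within each pair of relatives, the gene with the larger log2 fall was BBX18 in one and BBX25 in the other.

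Summed over the 8 genes, the class held 373 and 352 FPKM in jmj28-3 and 464 and 471 FPKM in WT. BBX24 alone made up 62.9% and 63.4% of that sum in jmj28-3 and 60.5% and 59.2% in WT, and over the 4 libraries its mean ranked 542 among the 33602 genes. The 4 repressor genes summed to 312 and 286 FPKM in jmj28-3 and to 405 and 415 FPKM in WT. The 4 positive regulators summed to 61.0 and 66.0 FPKM in jmj28-3 and to 58.4 and 55.7 FPKM in WT, which was 16.4% and 18.8% of the class in jmj28-3 and 12.6% and 11.8% in WT. The split by role is taken from background knowledge and was applied with the values in view, so these sums carry no test.

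For each gene called lower, the 2 tested genes outside the class with the most similar pattern were found by Euclidean distance between log2(FPKM + 1) values centred on the gene's own mean, over 4 libraries. For BBX18 these were AT2G31560 (distance 0.0342) and XTH13 (0.0565), for BBX19 NET2D (0.0346) and RHS18 (0.0370), for BBX24 RGD3 (0.00738) and AT1G54385 (0.00986), and for BBX25 CPK15 (0.0409) and SQP1 (0.0480). AT2G31560 had 19.9 and 17.3 FPKM in jmj28-3 and 37.0 and 41.9 FPKM in WT, close to the values of BBX18 in each library. The neighbours of BBX24 had nearly its log2 change, -0.29 for both, and were not called (adjusted p = 0.0900 for RGD3 and 0.127 for AT1G54385). XTH13 has close tandem relatives with which reads can be shared, so its values are uncertain. The smallest distances were sought among all tested genes outside the class, over only 4 values per gene. No reference distance was computed, and shared regulation was not tested.

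The rest of the B-box family moved in both directions. Of 24 other B-box genes, 21 were tested, 5 were called higher, 6 lower and 10 were not called. Over all 20232 tested genes, 4.18% were called higher and 3.79% lower. The median log2 change was -0.05 for the other B-box genes, -0.29 for the 7 tested genes of BBX18 to BBX25 and -0.03 for all tested genes. The other B-box genes called lower with the largest changes were BBX32, BBX30, BBX31 and BBX29, genes of the class with a single B-box, with log2 changes from -2.79 to -1.95. Their changes exceeded that of BBX18, the largest among BBX18 to BBX25. On the higher side, named after their values were seen, BBX17 and BBX14, which carry a B-box and a CCT domain, had log2 changes of 1.61 and 1.15. CONSTANS itself, BBX1, with which BBX19 interacts, had 0.99 and 0.50 FPKM in jmj28-3 and 0.53 and 0.50 FPKM in WT and was not called (adjusted p = 0.628).

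The light signalling list holds HY5 and COP1 as well as photoreceptor and other light signalling genes, and all 25 were tested. Of these, 5 were called higher, 7 lower and 13 were not called (median log2 change 0.12). The shares over all tested genes were 4.18% higher and 3.79% lower (median log2 change -0.03). HYH, the bZIP relative of HY5, had 55.0 and 53.7 FPKM in jmj28-3 and 85.7 and 84.6 FPKM in WT (log2 change -0.64, adjusted p = 0.00400). RUP2, a repressor of the UV-B receptor UVR8, was lower by a log2 change of -0.69 (adjusted p = 0.0132). The growth-promoting bHLH gene PIF4 had 82.4 and 78.6 FPKM in jmj28-3 and 45.4 and 52.2 FPKM in WT (log2 change 0.72, adjusted p = 0.00917), and the far-red photoreceptor gene PHYA was higher by 0.61 (adjusted p = 0.00841). These 4 were chosen as the called genes of the list with the largest changes.

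The following genes of the same list were named after their values were seen. HY5 had 16.1 and 16.5 FPKM in jmj28-3 and 23.5 and 25.1 FPKM in WT (log2 change -0.55, adjusted p = 0.0134). BBX21, given above as an activator of HY5, was not called, and whether its transcript level bears on that of HY5 was not tested. COP1 was also lower (log2 change -0.35, adjusted p = 0.0398). So were SPA1, SPA3 and SPA4, with log2 changes from -0.60 to -0.33 and adjusted p from 0.0226 to 0.0381. SPA2 was not called (log2 change -0.00447). In the light signalling list, the 7 lower and 5 higher calls became 3 and 4 with no filter, and 4 and 3 with no variance trend. ELF3 had a log2 change of 0.19 and was not called (adjusted p = 0.276), and BZR1 had 0.27 (adjusted p = 0.0772).

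Of 16 listed light output genes, controlled by HY5, by PIF factors or by both, 1 was called higher, 7 lower and 8 not called. Their median log2 change was -0.61, against -0.03 over all tested genes, of which 4.18% were called higher and 3.79% lower. This list and those above were drawn up with earlier results of these data known, so their counts and medians are a description. The called genes of the list with the largest changes were ELIP1, for an early light-induced chlorophyll-binding protein, the flavonol regulators MYB12 and MYB111, and the flavonol synthase gene FLS1. ELIP1 had 57.1 and 81.9 FPKM in jmj28-3 and 161 and 161 FPKM in WT, a log2 change of -1.22 (adjusted p = 0.0140). The changes of MYB12, MYB111 and FLS1 were -1.03, -0.79 and -0.76. The single gene called higher was ATHB2, a shade-induced homeobox gene, with 11.6 and 11.5 FPKM in jmj28-3 and 7.46 and 6.48 FPKM in WT (log2 change 0.66, adjusted p = 0.0191). No test was made of whether any of these lists moved with BBX18 to BBX25.

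**Figure D4:**
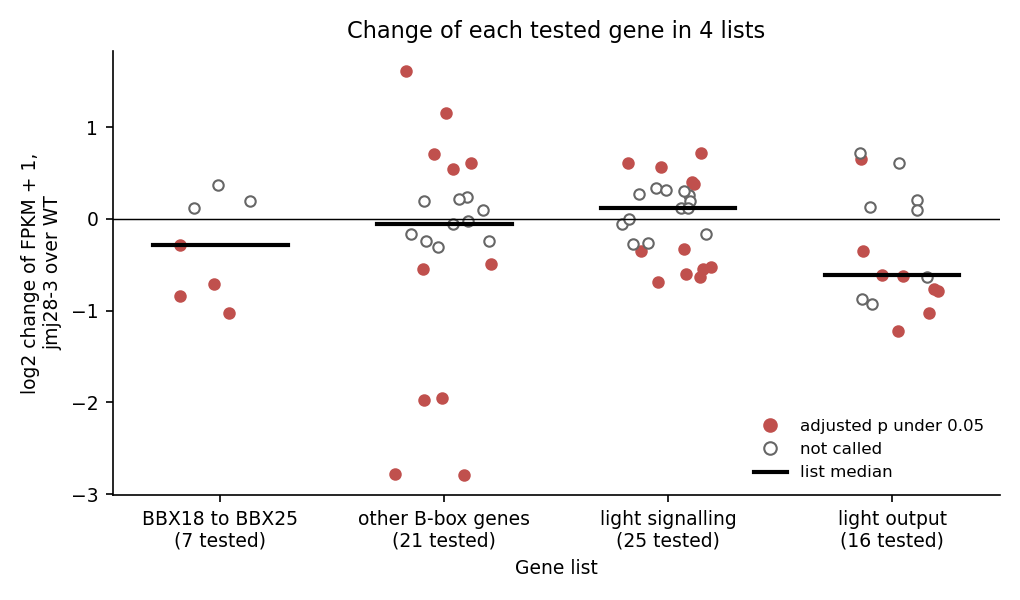
Log2 change of FPKM + 1 in jmj28-3 over WT for each tested gene of 4 lists, 1 point per gene, red where the adjusted p was under 0.05, with a black line at each list's median (horizontal scatter has no meaning). BBX18 to BBX25 span -1.03 to 0.37, and the other B-box genes span -2.79 to 1.61.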

How the data were processed

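Whole-seedling polyadenylated RNA was measured in 2 jmj28-3 and 2 WT libraries, and 0 value columns were left unmatched to the labels. The authors deposited FPKM with 2 decimals, and the submitters' processing notes name TopHat, RSEM, edgeR and the genome build TAIR10. Versions, settings and strand use are not given in the sources used here. FPKM hold no counts, so log2(FPKM + 1) was tested with limma 3.58.1 in R 4.3.3, with genotype as the only term and a variance trend in eBayes. Genes with mean FPKM of at least 0.5 were tested, p-values were two-sided and adjusted over all 20232 genes, and the threshold was 0.05. Log2 changes understate the change of low genes, and folds are ratios of mean FPKM. Absolute depth is unknown, and relative depth was read from the commonest ratio between low FPKM values.

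Nothing in the labels says that the replicates were separate cultures. The p-values then reflect the spread among these 4 libraries alone, which may be technical. The members and lists (other B-box genes, light signalling, light output and organ markers) were chosen with earlier results of these data known. The rule named all 8 members, JMJ28, up to 4 called genes of each list with the largest change, and the 2 genes nearest in pattern to each called member. Symbols, positions and sequences came from RefSeq TAIR10.1 by gene identifier (32835 of 33602 found). The table carries no coordinates. Coding sequences were aligned globally with Biopython 1.88. The alternatives changed the pseudocount (0.1 or 0.5), the filter (none, or a mean FPKM of 2), the scaling (median of ratios or quantile) and the model (replicate block, or no variance trend), and left out each library in turn.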

Additional observations from a re-analysis of the deposited data

How the results depend on the processing

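The directions of BBX18, BBX19, BBX20, BBX21, BBX22, BBX24 and BBX25 held in each of 12 alternative settings. The count of 4 genes of the class called lower fell to 2 with no filter and to 2 with no variance trend, and the call on BBX24 was lost under the replicate block, which left 3. Leaving out 1 library left 0 to 2 of them, with 1 without WT replicate 1, 1 without WT replicate 2, 2 without jmj28-3 replicate 1 and 0 without jmj28-3 replicate 2. None was called higher in any alternative. Over all genes, the 846 higher and 767 lower calls became 526 and 351 with no filter, 469 and 287 with no variance trend, and 534 and 328 with the replicate block. They ranged from 70 to 398 higher and from 21 to 164 lower with 1 library left out, when only 3 libraries enter the fit. With no filter more genes are tested, and the other causes were not tested. The replicates share only numbers, and their deviations correlated at -0.133 across genes between genotypes. A crossed pairing, chosen after seeing the data, gave 1158 higher and 1129 lower calls, and 4 of the class lower.

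Counts of called genes in the lists also fell or stayed level with 1 library left out. Without jmj28-3 replicate 2, each list's count was the lowest or tied for the lowest. Under the replicate block the light signalling list had 3 higher and 4 lower. BBX20 is near 2 FPKM and BBX23 at 0, so changes in them are the least detectable at this depth.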
